A study of Mus musculus with 8 samples.

Results

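The motile cilium axoneme genes are 44 genes that encode the building blocks, assembly factors and transcription factors of motile cilia, picked from a fixed list of symbols and found on the array by RefSeq accession. Of the 44, 41 had a probe, and all 41 exceeded the scanner's background threshold in both mice of some group, as did 28992 genes or unnamed transcripts in all. Dnah3, Dnah12 and Ccdc40 matched no probe and are not analysed here. The brightest probe stands for a gene, and values are log2 intensities after quantile normalization over the 8 arrays.

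Lung RNA came from 8 female BALB/c mice, 2 in each of 4 groups, with 1 array per mouse. NT mice were healthy, ate standard feed for 70 days and never received ovalbumin (OVA). The other 3 groups were all sensitized to OVA by intraperitoneal injection and challenged with it by inhalation, the allergen model of asthma. Ctrl-F mice ate standard feed, Cap-F mice ate feed with carbonate apatite particles that held no oligonucleotide, and ODNcap-F mice ate feed with the same kind of particles loaded with an oligodeoxynucleotide, each for 70 days. No group was fed either particle without OVA, so that in ODNcap-F and Cap-F the feed is always seen on top of the allergen. The labels give no age.

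Multiciliated cells line the conducting airways among club, goblet and basal cells, and each carries many motile cilia that sweep mucus out of the lung. The core of a motile cilium, the axoneme, is a ring of doublet microtubules around a central pair. Outer and inner dynein arms on the doublets drive the beat, while radial spokes, the central pair and the nexin-dynein regulatory complex control it. The factors Mcidas, Foxj1 and the RFX proteins switch this gene program on, and RFX proteins bind a promoter motif named the X-box. Whole lung holds few multiciliated cells. In bulk RNA, fewer such cells and less RNA per cell cannot be told apart.

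Because RFX factors are themselves among the members, the X-box core GTTGCC was searched on both strands (GGCAAC on the other strand) in RefSeq promoters of build GRCm38.p6, from 250 bases before to 50 bases after each start site. Of the 44 members, 38 had a promoter in that table, and 19 of these (50%) held the core, against 14.1% of 27025 genes. A pair of cores, GTTNCC followed within 0 to 3 bases by GGNAAC, was in 0 members and in 0.936% of genes. That pattern is strict and misses the letters GTTGCT shortly before GGCAAC, seen below in Tekt2, Hydin, Dnai2 and Cfap44. Looser pairs were not searched, so the 0 does not show that members lack a paired X-box. The forkhead motif GTAAACA, or TGTTTAC on the other strand, was in 3 members (7.89%), Ak7, Cfap43 and Sntn, and in 4.05% of genes. The stretches below show the core in members of different parts of the axoneme, upstream of the start site and on the strand of the gene. Capitals mark each match to the core. Ropn1l is shown because its RNA was not lower after OVA.
Tekt1: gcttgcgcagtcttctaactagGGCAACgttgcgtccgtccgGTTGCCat
Tekt2: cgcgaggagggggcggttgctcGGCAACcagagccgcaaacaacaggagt
Spag16: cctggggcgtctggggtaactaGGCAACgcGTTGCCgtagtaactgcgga
Hydin: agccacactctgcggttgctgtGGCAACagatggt
Dnai2: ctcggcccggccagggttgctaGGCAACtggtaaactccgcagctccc
Drc1: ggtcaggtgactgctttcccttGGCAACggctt
Cfap44: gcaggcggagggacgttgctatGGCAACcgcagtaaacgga
Rfx2: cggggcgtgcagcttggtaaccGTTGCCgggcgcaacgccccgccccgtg
Ropn1l: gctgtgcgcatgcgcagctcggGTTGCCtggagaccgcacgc

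These lie at chr11:72361890-72361939 (minus strand) for Tekt1, chr4:126325683-126325732 (minus strand) for Tekt2, chr1:69826837-69826886 (plus strand) for Spag16 and chr8:110266942-110266976 (plus strand) for Hydin. Dnai2 is at chr11:114727371-114727418 (plus strand), Drc1 at chr5:30281360-30281392 (plus strand) and Cfap44 at chr16:44394758-44394798 (plus strand). Rfx2 is at chr17:56831097-56831146 (minus strand) and Ropn1l at chr15:31453690-31453731 (minus strand). Tekt1 and Spag16 each hold the core on both strands within the printed stretch. A match describes the letters only and does not show binding.

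Between 61.3% and 65.0% of the 56605 probes passed the background threshold on single arrays, and 38 of the 41 members did so on all 8 arrays. The exceptions were Dnah1 (5 arrays), Dnah7a (7 arrays) and Dnaaf1 (4 arrays). The lung label fits its markers. The alveolar type 2 gene Sftpc stood between 17.60 and 17.64 on the log2 scale in all 8 mice, and the club cell gene Scgb1a1 between 17.52 and 17.64. Their steadiness does not show a constant RNA level, since quantile normalization gives the brightest probes of each array the same set of values. The 8 arrays shared 1 slide, with NT and Ctrl-F in its row 1 and the particle-fed groups in its row 2. Between groups of different rows, row and group cannot be told apart. With 2 mice against 2, an exact permutation test of 1 gene cannot give a two-sided p below 0.333. The tests below come from 1 limma fit of all 8 arrays, and a change counted as called when its adjusted p (Benjamini-Hochberg, over all 37116 kept probes) was under 0.05. The 3 comparisons with NT share the same NT mice.

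**Figure D1:**
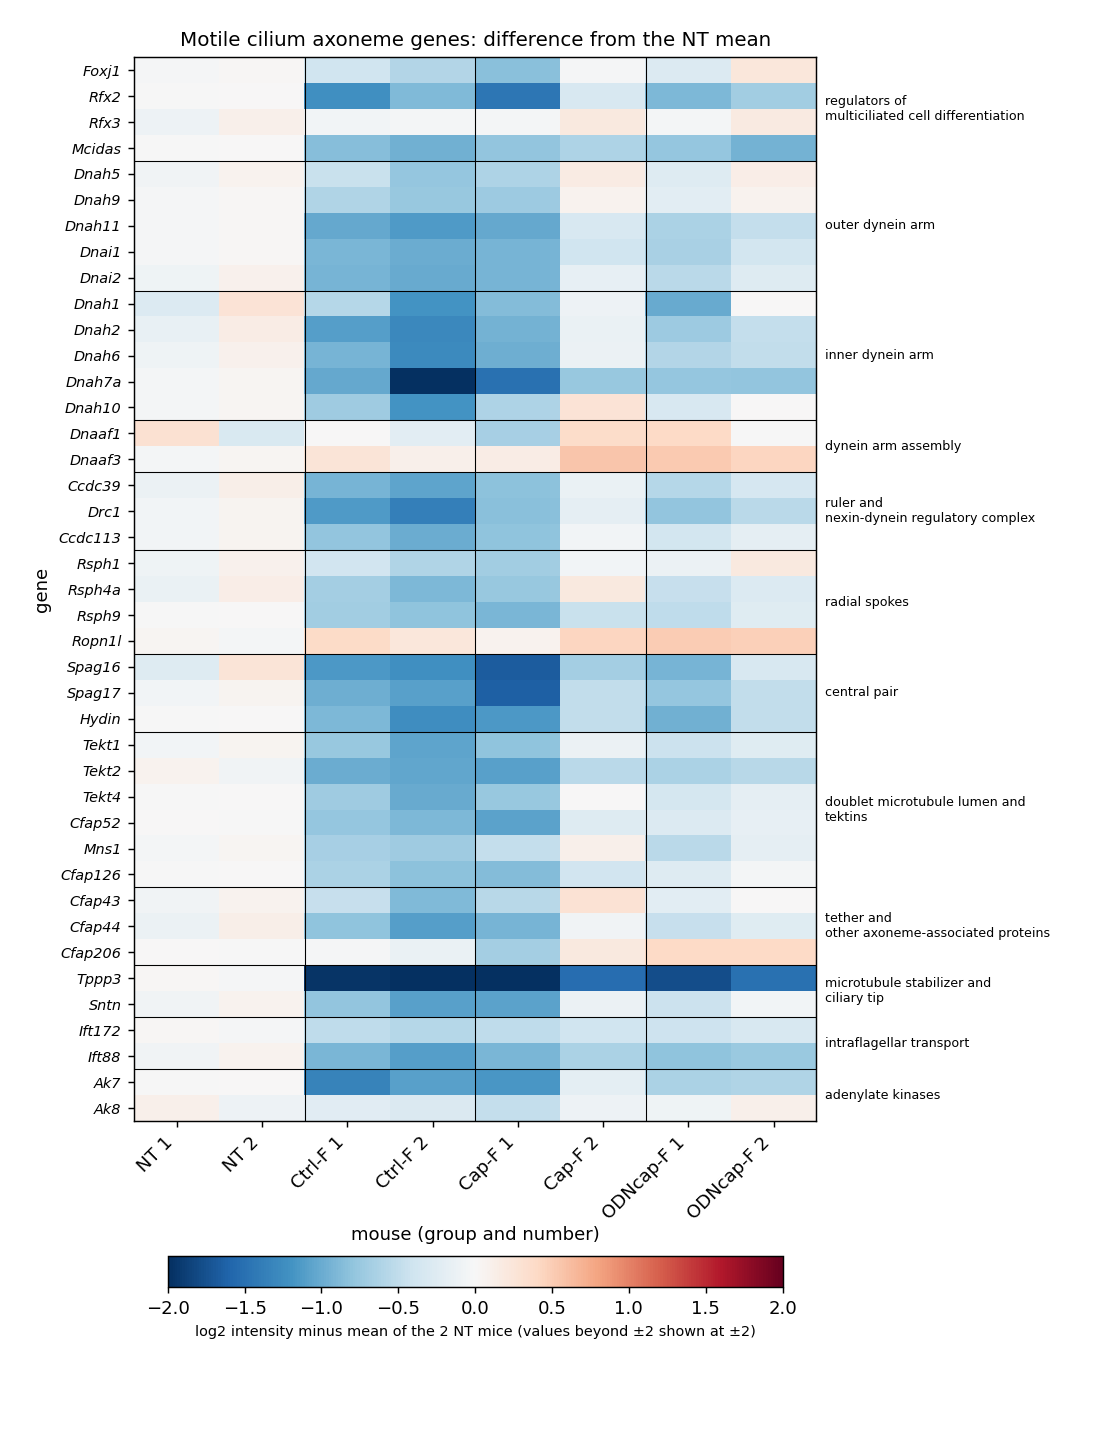
Heat map of the 41 measured genes (rows, grouped by their part of the cilium) in the 8 mice (columns), coloured by log2 intensity minus the mean of the 2 NT mice, with values beyond 2 shown at 2. Ctrl-F mice and the first Cap-F mouse are blue in most rows, the second Cap-F mouse is pale except in a few rows, and the ODNcap-F mice lie between.

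The first question is what OVA challenge on standard feed did to these genes. Ctrl-F lungs held less RNA of most axoneme genes than NT lungs, with falls in each structural part of the cilium. In Ctrl-F against NT, 28 of 41 members fell and 0 rose, while 35.7% of all genes fell and 26.2% rose. Of the 28, 13 fell more than 2-fold, where 12.2% of all genes did. The median log2 fold change was -0.91 over the members and -0.12 over all genes. Both Ctrl-F mice lay below both NT mice for 37 members, against 48.5% of all genes. The per-mouse median difference from the NT mean was -0.77 and -0.997 in the 2 Ctrl-F mice. The count rests on each of the 4 mice compared. It was 11 (26.8%) without NT mouse 1, where 29.0% of all genes fell, and 8 (19.5%) without NT mouse 2, where 28.2% did. It was 16 (39.0%) without Ctrl-F mouse 1, where 29.9% of all genes fell, and 10 (24.4%) without Ctrl-F mouse 2, where 29.6% did. All of those calls were lower. With 1 of these 4 mice missing, the members' share of calls thus exceeded that of all genes only without Ctrl-F mouse 1, while the median over the members stayed between -0.997 and -0.77.

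Tppp3, which binds and stabilizes microtubules, had the largest change of any member. Its log2 values were 15.68 and 15.65 (NT), 13.70 and 13.65 (Ctrl-F), 13.65 and 14.14 (Cap-F) and 13.90 and 14.18 (ODNcap-F). All 6 OVA-challenged mice thus lay well below both NT mice. Its log2 fold change was -1.99 (SE 0.18, 3.98-fold lower) in Ctrl-F (adjusted p = 0.000270 in limma), -1.77 in Cap-F (adjusted p = 0.000489) and -1.63 in ODNcap-F (adjusted p = 0.000612). A second probe of Tppp3 gave -2.24, -1.97 and -1.82.

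**Figure D2:**
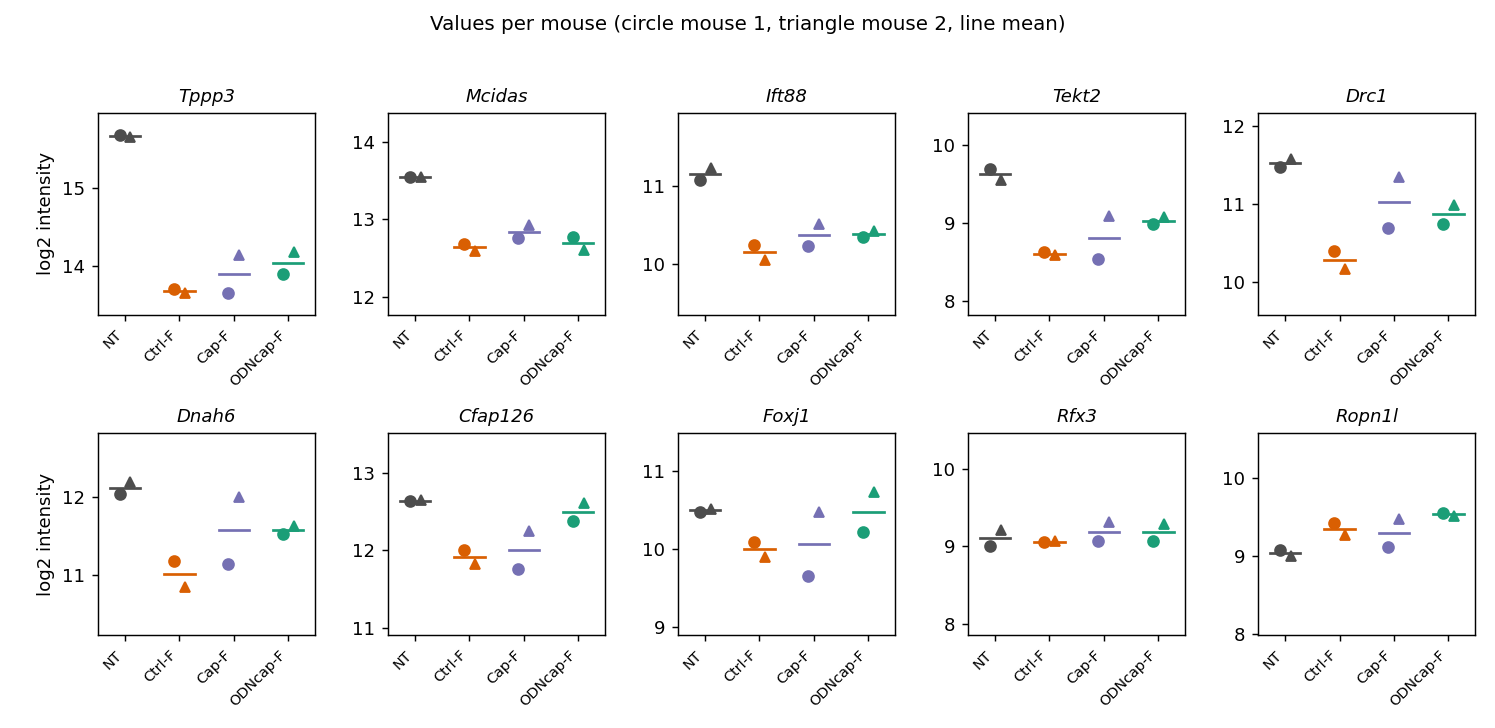
Log2 intensity (vertical axis, 2.6 units in each panel) of 10 genes in each mouse by group, with circles for mouse 1, triangles for mouse 2 and a line at the mean. Tppp3, Mcidas, Ift88 and Tekt2 are lower in all 6 OVA-challenged mice than in NT, Drc1, Dnah6, Cfap126 and Foxj1 stand apart between the 2 Cap-F mice, and Rfx3 and Ropn1l are not lower.

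Among the regulators, 2 of 4 fell in Ctrl-F. Mcidas, or multicilin, starts centriole amplification in cells that will become multiciliated. It stood at 13.55 and 13.55 in NT and at 12.69 and 12.59 in Ctrl-F. Cap-F mice had 12.76 and 12.93, and ODNcap-F mice had 12.78 and 12.61. No OVA-challenged mouse reached the NT level. The log2 fold changes were -0.91 (SE 0.10), -0.71 and -0.85 (limma, adjusted p = 0.000518, 0.00157 and 0.000706). A second, much dimmer probe of Mcidas, well above background on 2 arrays only, gave -0.98 (adjusted p = 0.0333), -0.36 (adjusted p = 0.345) and -0.67 (adjusted p = 0.104). Whether the bright probe measures Mcidas alone was not tested. The RFX factor Rfx2 read 5.70 and 5.73 (log2, NT), 4.49 and 4.83 (Ctrl-F), 4.27 and 5.39 (Cap-F) and 4.83 and 5.02 (ODNcap-F). It fell by 1.06 in Ctrl-F (adjusted p = 0.0398 in limma), but by how much is uncertain. Its Ctrl-F values lay not far above the lowest values well above background on those arrays, 4 and 4.03. The Rfx2 difference was -0.40 with normexp background correction, and it did not pass with no filter on background. Foxj1, the main activator of motile cilium genes, was not called. Its log2 values were 10.48 and 10.51 (NT), 10.10 and 9.90 (Ctrl-F), 9.66 and 10.47 (Cap-F) and 10.22 and 10.73 (ODNcap-F). The Ctrl-F difference was -0.50 (SE 0.29) with an adjusted p of 0.183. Rfx3 stood between 9.01 and 9.31 in all 8 mice.

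The outer dynein arm genes fell or were lower in Ctrl-F, with 3 of 5 called. Dnah11, a heavy chain, read 8.65 and 8.71 (log2, NT), 7.65 and 7.55 (Ctrl-F), 7.66 and 8.36 (Cap-F) and 8.05 and 8.21 (ODNcap-F). Cap-F mouse 1 stood beside the Ctrl-F mice and Cap-F mouse 2 nearer to NT. Dnah11 fell by 1.08 in Ctrl-F (adjusted p = 0.00675) and by 0.67 in Cap-F (adjusted p = 0.0414). The intermediate chains Dnai1 and Dnai2 fell by 0.96 and 0.97 in Ctrl-F. The heavy chains Dnah5 and Dnah9 differed by -0.61 (adjusted p = 0.104) and -0.68 (adjusted p = 0.0608) and did not pass, although both Ctrl-F mice lay below both NT mice for each.

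Of the inner dynein arm heavy chains, 4 of 5 fell in Ctrl-F. Dnah6 read 12.04 and 12.20 (log2, NT), 11.18 and 10.85 (Ctrl-F), 11.14 and 12.001 (Cap-F) and 11.53 and 11.63 (ODNcap-F). Ctrl-F and NT did not overlap, and Cap-F mouse 2 came close to NT mouse 1. Dnah6 fell by 1.10 (SE 0.28), Dnah2 by 1.19 and Dnah10 by 0.95, with adjusted p between 0.0107 and 0.0402 in limma. Dnah7a fell (adjusted p = 0.0234), but by how much is uncertain. Its NT values were 5.85 and 5.94 and its Ctrl-F values 4.87 and 3.26, of which the second was not well above background. The difference was -1.83 with both Ctrl-F mice, -1.02 without the second, -2.63 without the first and -0.63 with normexp background correction. Its near-identical relatives Dnah7b and Dnah7c could share the probe's signal. Dnah1 differed by -0.88 with an adjusted p of 0.134.

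The dynein assembly factors, which load dynein complexes in the cytoplasm, were called in neither direction in Ctrl-F. Dnaaf3 read 9.81 and 9.90 (log2, NT), 10.11 and 9.96 (Ctrl-F), 10.001 and 10.41 (Cap-F) and 10.38 and 10.28 (ODNcap-F). All 6 OVA-challenged mice were above both NT mice. Dnaaf3 rose by 0.47 in ODNcap-F (adjusted p = 0.0308), while its differences of 0.18 in Ctrl-F (adjusted p = 0.315) and 0.35 in Cap-F (adjusted p = 0.0839) did not pass. Dnaaf1 was not well above background in Ctrl-F. Dnaaf1 read 4.58 and 3.98 (log2) in NT and 4.28 and 4.07 in Ctrl-F, so the groups overlapped (adjusted p = 0.822). Its measured log2 means were 4.28 in NT and 4.18 in Ctrl-F.

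All 3 genes of the ruler and the nexin-dynein regulatory complex fell in Ctrl-F. Drc1, a subunit of that complex, read 11.48 and 11.58 (log2, NT), 10.40 and 10.16 (Ctrl-F), 10.69 and 11.35 (Cap-F) and 10.74 and 10.99 (ODNcap-F). Every OVA-challenged mouse was below both NT mice and every particle-fed mouse above both Ctrl-F mice. Drc1 fell by 1.25 (SE 0.23) in Ctrl-F (limma, adjusted p = 0.00419). Ccdc39, part of the ruler that sets the spacing along the doublet, fell by 0.99, and Ccdc113, a coiled-coil protein of the axoneme, by 0.89.

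Of the radial spoke genes, 1 of 4 fell in Ctrl-F. Rsph9, a spoke head protein, read 11.26 and 11.28 (log2, NT), 10.58 and 10.47 (Ctrl-F), 10.35 and 10.83 (Cap-F) and 10.76 and 11.03 (ODNcap-F). It fell by 0.75 in Ctrl-F (adjusted p = 0.0110) and by 0.68 in Cap-F (adjusted p = 0.0170). The spoke head genes Rsph1 and Rsph4a differed by -0.49 (adjusted p = 0.109) and -0.78 (adjusted p = 0.0664). Ropn1l, a spoke stalk protein, had higher values in all OVA-challenged mice. It stood at 9.08 and 9.01 in NT and between 9.12 and 9.56 in the 6 OVA-challenged mice. Ropn1l rose by 0.50 in ODNcap-F (adjusted p = 0.0181), and its differences of 0.31 in Ctrl-F (adjusted p = 0.0846) and 0.25 in Cap-F (adjusted p = 0.141) did not pass.

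All 3 central pair genes fell in both Ctrl-F and Cap-F, as did both intraflagellar transport genes. Spag16 read 7.01 and 7.53 (log2, NT), 6.12 and 6.05 (Ctrl-F), 5.61 and 6.59 (Cap-F) and 6.34 and 6.94 (ODNcap-F). Spag17 had 6.59 and 6.70 (NT), 5.66 and 5.56 (Ctrl-F), 5.02 and 6.15 (Cap-F) and 5.87 and 6.16 (ODNcap-F). For both genes Cap-F mouse 1 was the lowest of the 8 mice. Their log2 fold changes in Ctrl-F were -1.18 and -1.03, and the Cap-F values were -1.17 and -1.06, with adjusted p between 0.0335 and 0.0426 in limma. Hydin, a large central pair protein needed for normal beating, fell by 1.07 in Ctrl-F (adjusted p = 0.0138) and by 0.82 in Cap-F (adjusted p = 0.0388). In ODNcap-F the 3 genes differed by -0.63 to -0.72 and none passed, with adjusted p from 0.0556 to 0.191.

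Inside the doublet microtubules, all 6 genes fell in Ctrl-F, by 0.69 to 1.02. Tekt2, one of the tektin filament proteins, read 9.69 and 9.55 (log2, NT), 8.62 and 8.58 (Ctrl-F), 8.53 and 9.08 (Cap-F) and 8.98 and 9.07 (ODNcap-F). It was low in every OVA-challenged mouse and fell by 1.02 in Ctrl-F (adjusted p = 0.00363), by 0.81 in Cap-F (adjusted p = 0.00979) and by 0.59 in ODNcap-F (adjusted p = 0.0293). Tekt1 and Tekt4 fell by 0.91 and 0.86 in Ctrl-F. The microtubule inner proteins Cfap52 and Mns1 fell by 0.83 and 0.69. Cfap126, also named Flattop, read 12.63 and 12.65 (log2, NT), 12.003 and 11.82 (Ctrl-F), 11.77 and 12.25 (Cap-F) and 12.38 and 12.60 (ODNcap-F). It fell by 0.73 in Ctrl-F (adjusted p = 0.0126) and by 0.63 in Cap-F (adjusted p = 0.0236), and ODNcap-F mouse 2 stood near its NT level.

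Of the tether and other axoneme-associated genes, Cfap44 fell by 0.95 in Ctrl-F (adjusted p = 0.0285). Its tether partner Cfap43 differed by -0.67 (adjusted p = 0.0906) by the brightest probe, while a dimmer probe of Cfap43 gave -1.13 (adjusted p = 0.00441). Cfap206, found at the base of the spokes, stood at 6.05 and 6.03 in NT and at 6.02 and 5.91 in Ctrl-F, a difference of -0.07 with an adjusted p of 0.826. Sntn, a protein of the ciliary tip, fell by 0.94 (adjusted p = 0.0442).

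The intraflagellar transport genes carry cargo along the cilium and are also used by nonmotile cilia. Both were lower in all 6 OVA-challenged mice, with little spread. Ift88 read 11.09 and 11.23 (log2, NT), 10.25 and 10.06 (Ctrl-F), 10.24 and 10.52 (Cap-F) and 10.35 and 10.42 (ODNcap-F). It fell by 1.01 (SE 0.12), 0.78 and 0.77 (limma, adjusted p = 0.000902, 0.00283 and 0.00276). Ift172 fell by 0.54, 0.45 and 0.37 (adjusted p = 0.00169, 0.00391 and 0.00778). Of the adenylate kinases, which keep nucleotide levels balanced near the dyneins, Ak7 fell by 1.21 in Ctrl-F (adjusted p = 0.0139) and Ak8 differed by -0.26 (adjusted p = 0.178).

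**Figure D3:**
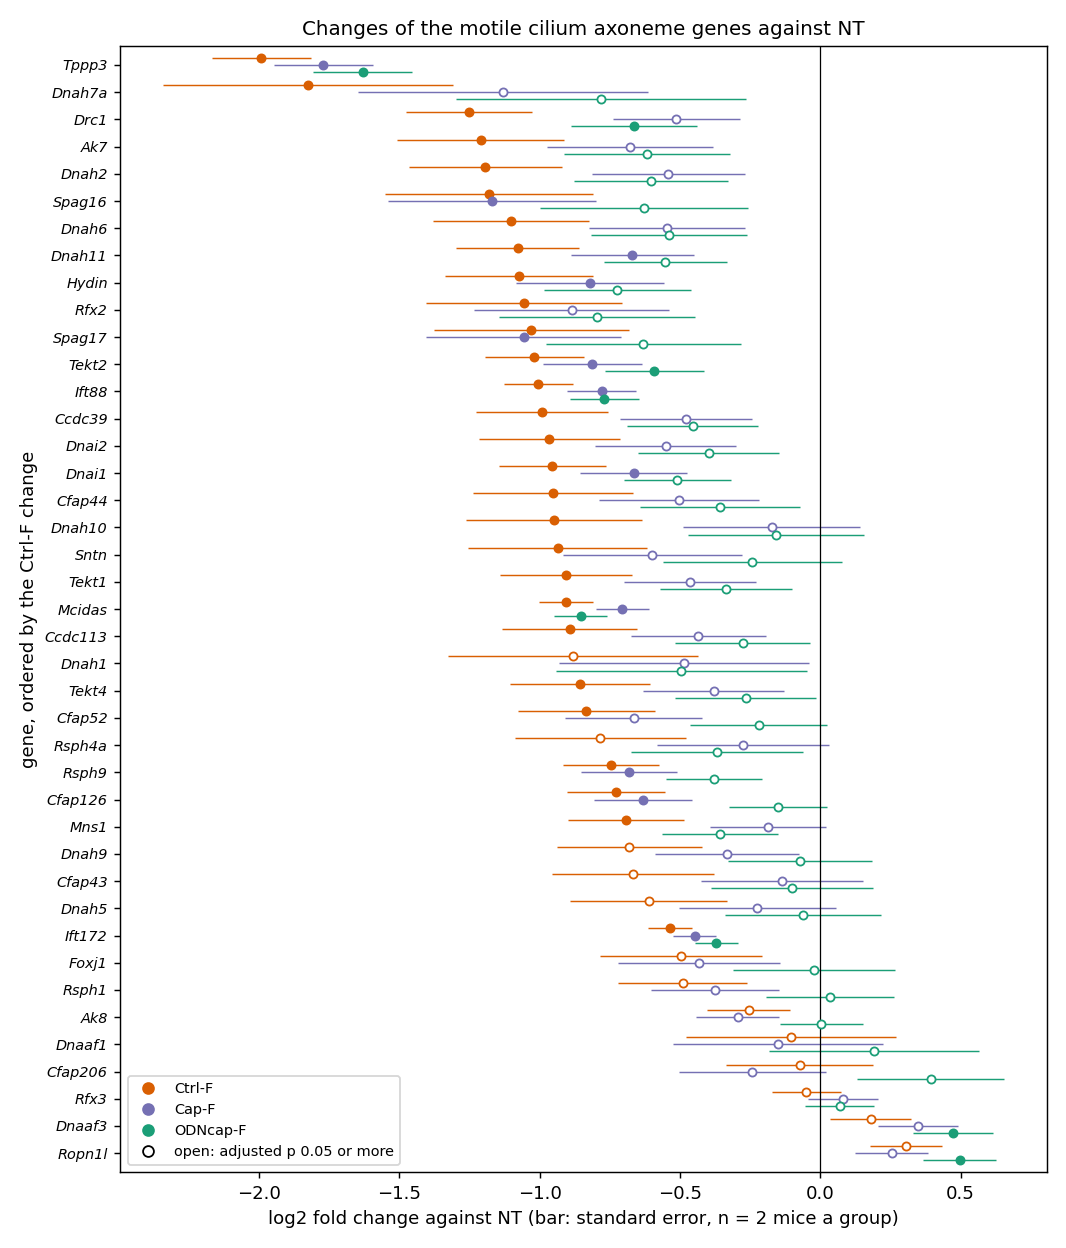
Log2 fold change against NT (horizontal axis, with standard error) of each of the 41 genes in the 3 OVA-challenged groups, ordered by the Ctrl-F change, with filled points for an adjusted p under 0.05. Of the Ctrl-F points, 28 are filled and all of these lie left of 0, and for most genes the ODNcap-F point lies right of the Ctrl-F point.

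In Cap-F against NT, 12 of 41 members fell and 0 rose, where 32.4% of all genes fell and 24.1% rose. The members' share of falls was thus not above the background with both Cap-F mice in the fit, and this depends on mouse 2. More than 2-fold lower were 3 members (Tppp3, Spag16 and Spag17), beside 9.87% of all genes. Both Cap-F mice lay below both NT mice for 25 members, beside 47.8% of all genes. The median log2 fold change was -0.50 over the members and -0.11 over all genes. Leaving out Cap-F mouse 1 gave -0.12, and leaving out mouse 2 gave -0.84. Without the second Cap-F mouse 31 members fell (75.6%), beside 26.9% of all genes, and without the first 6 fell (14.6%) and 2 rose, beside 25.7% of all genes lower. The calls were fewer without either NT mouse. The median was then -0.62 without NT mouse 1 and -0.45 without NT mouse 2. A local-pooled-error test, in which a probe borrows its spread from probes of like brightness, called 28 members lower and 1 higher, beside 26.4% of all genes lower.

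In ODNcap-F against NT, 6 of 41 members fell, namely Tppp3, Mcidas, Ift88, Ift172, Tekt2 and Drc1, and Dnaaf3 and Ropn1l rose. Of all genes, 34.9% fell and 25.1% rose, so neither share of the members was above the background in this fit. Tppp3 alone fell more than 2-fold, as 10.8% of all genes did. Both ODNcap-F mice lay below both NT mice for 27 members, beside 48.1% of all genes. The median log2 fold change was -0.37 over the members, -0.12 over all genes, and -0.24 over the members without ODNcap-F mouse 1. This median was -0.40 without NT mouse 1, -0.28 without NT mouse 2 and -0.47 without ODNcap-F mouse 2. The 8 calls became fewer with any 1 mouse of the NT or ODNcap-F groups left out. When 1 of the Cap-F mice was dropped from the fit they became 20, with 17 lower (41.5%, beside 33.9% of all genes) and 3 higher. The local-pooled-error test called 16 members lower and 2 higher, beside 27.7% of all genes lower. Tppp3, Ift88, Ift172 and Mcidas, the last by its bright probe, were called lower against NT in each of the 3 OVA-challenged groups under each alternative scaling, background correction, filter, probe choice and left-out mouse, and on the deposited log2 values.

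The largest median gap between mice of 1 group was in Cap-F. Cap-F mouse 2 was higher than Cap-F mouse 1 for 41 of 41 members, with a median log2 difference of 0.75, ranging from 0.11 for Ift172 to 1.14 for Spag17. Over all genes, 46.2% were higher in Cap-F mouse 2, with a median difference of -0.013. The members' median gap, mouse 2 minus mouse 1, was 0.09 in NT, -0.17 in Ctrl-F and 0.22 in ODNcap-F. Cap-F mouse 1 was at or below the higher Ctrl-F mouse for 33 members, and Cap-F mouse 2 was above both Ctrl-F mice for all 41 and at or above the lower NT mouse for 16. The Cap-F mean is therefore the mean of a mouse near the Ctrl-F level and a mouse nearer to NT.

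**Figure D4:**
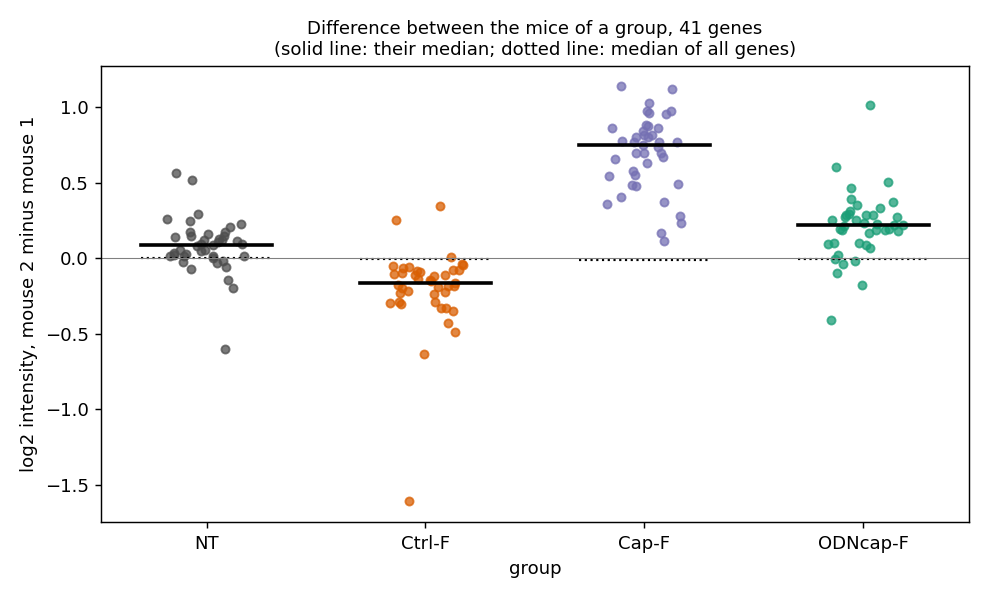
Difference between mouse 2 and mouse 1 of each group in log2 intensity (vertical axis) for the 41 genes (points), with their median as a solid line and the median of all genes as a dotted line. All Cap-F points lie above 0 with a median of 0.75, while the medians of the other groups lie between -0.17 and 0.22.

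Genes of other cells moved with this split. All 6 cardiomyocyte genes (Myh6, Tnnt2, Myl7, Nppa, Tnni3 and Actn2) were higher in Cap-F mouse 2 than in mouse 1, with a median log2 difference of 2.32. Their summed level was 14.49 and 13.34 (NT), 10.25 and 10.93 (Ctrl-F), 10.16 and 13.37 (Cap-F) and 12.85 and 13.61 (ODNcap-F). The 6 goblet cell genes were all higher in Cap-F mouse 2 too, by a median of 1.07, with a summed level of 16.95 in mouse 1 and 17.59 in mouse 2, and so were all 5 club cell genes, by a median of 0.38, from 18.04 to 18.29. The alveolar type 2 list had 1 of 6 genes higher and the eosinophil list 0 of 7, each with a median difference of -0.09. The part of these cells in the members' values was not tested.

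The same lists moved in Ctrl-F against NT. All 6 goblet cell genes rose (median 3.60), with a summed level of 10.84 and 11.68 in NT and 17.17 and 16.89 in Ctrl-F. So did 7 of 7 eosinophil, 6 of 6 B and plasma cell and 4 of 5 macrophage genes. The remaining macrophage gene, Marco, fell by 3.98 (adjusted p = 0.000353). Of the 6 cardiomyocyte genes 4 fell and 0 rose, with a median of -2.85. All 5 alveolar type 1 and all 5 endothelial genes fell, with medians of -1.32 and -1.27, all larger in size than the members' median. In the alveolar type 2 list 3 of 6 fell (median -0.36). In the T cell list 4 of 5 rose, in the neutrophil list 2 of 4 fell and 1 rose, and in the basal cell list, where Krt5 was below the background rule, 0 of 3 fell and 1 rose. Of the 5 club cell genes 2 fell and 0 rose, Scgb3a2 by 4.12 and Cyp2f2 by 1.95. Scgb3a1 differed by 1.65 (adjusted p = 0.148) and Bpifa1 by -0.94 (adjusted p = 0.331). Scgb1a1, near the top of the scale, differed by -0.08 (adjusted p = 0.311), which does not show a constant RNA level. The part of these shifts in the members' values was not tested.

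The second question is whether the feed changed the level of these genes in OVA-challenged mice. ODNcap-F lungs had higher values than Ctrl-F lungs for all 41 members, but no member passed the test. Between ODNcap-F and Ctrl-F limma called 0 members and 0% of all genes, and the smallest adjusted p of a member was 0.728. At an unadjusted p under 0.05, 5 members were higher and 0 lower, where 3.69% of all genes were higher. Both ODNcap-F mice lay above both Ctrl-F mice for 36 members, beside 17.0% of all genes. The median log2 fold change was 0.53 over the members and -0.01 over all genes, and between 0.38 and 0.61 with 1 mouse left out. Genes of other cells were higher with them. Both ODNcap-F mice lay above both Ctrl-F mice for all 6 goblet genes (median difference 0.89), all 6 cardiomyocyte genes (2.26) and 4 of 5 club cell genes (0.40), and for 3 of 6 alveolar type 2 genes (0.00) and 0 of 7 eosinophil genes (0.04). From these same arrays the authors had already reported Myh6, Tnnt2, Myl7, Nppa and Tnni3 as higher in ODNcap-F. The cardiomyocyte count is therefore not an independent observation. Beyond the arrays, the authors measured Tnnt2, Myh6 and Myl7 by quantitative PCR in larger groups and stained lung sections for troponin T. By PCR they reported lower levels than NT in Ctrl-F and Cap-F, and levels comparable to NT in ODNcap-F. The part of these other cell types in the members' difference between ODNcap-F and Ctrl-F was not tested.

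The 5 members at an unadjusted p were Cfap126, Drc1, Ccdc113, Dnah10 and Cfap52. Cfap126 differed by 0.58 (SE 0.17), from 12.003 and 11.82 in Ctrl-F to 12.38 and 12.60 in ODNcap-F (adjusted p = 0.728). Dnah10 differed by 0.79 (SE 0.31), from 9.16 and 8.67 to 9.54 and 9.87, with an adjusted p of 0.740. The other 3 differed by 0.59 to 0.62, with the same adjusted p of 0.740 in limma. The local-pooled-error test called Dnah10 alone among the members (adjusted p = 0.00220), against 0.593% of all genes higher. On the deposited log2 table it called 7 members. The share of all genes called there was not computed, so this count cannot be set against a background. The regulator and transport genes that fell in all OVA-challenged groups had small differences between ODNcap-F and Ctrl-F. Mcidas differed by 0.05, Ift172 by 0.17 and Ift88 by 0.23 (adjusted p from 0.759 to 0.952).

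Cap-F against Ctrl-F gave 0 calls among the members, with a smallest adjusted p of 0.224, and 0.00345% of all genes. At an unadjusted p, 3 members were higher (Drc1, Dnah10 and Mns1), where 8.99% of all genes were. Both Cap-F mice lay above both Ctrl-F mice for 8 members, beside 25.9% of all genes. The median log2 fold change was 0.29 over the members, 0.73 with the first Cap-F mouse left out and 0.013 with the second left out. The local-pooled-error test called Drc1, Dnah10, Dnah2 and Dnah6 higher, beside 0.866% of all genes higher and 0.614% lower.

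ODNcap-F against Cap-F gave 0 calls as well, with a smallest adjusted p of 0.354, beside 0.00345% of all genes. At an unadjusted p, Cfap126 alone was higher, where 5.98% of all genes were. The ODNcap-F mice were both above the Cap-F mice for 4 members, beside 21.0% of all genes. The median log2 fold change was 0.14, and it turned to -0.17 when the first Cap-F mouse was left out and was 0.485 when the second was. The adjusted p of a member that misses the threshold does not show that the feeds acted alike.

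**Figure D5:**
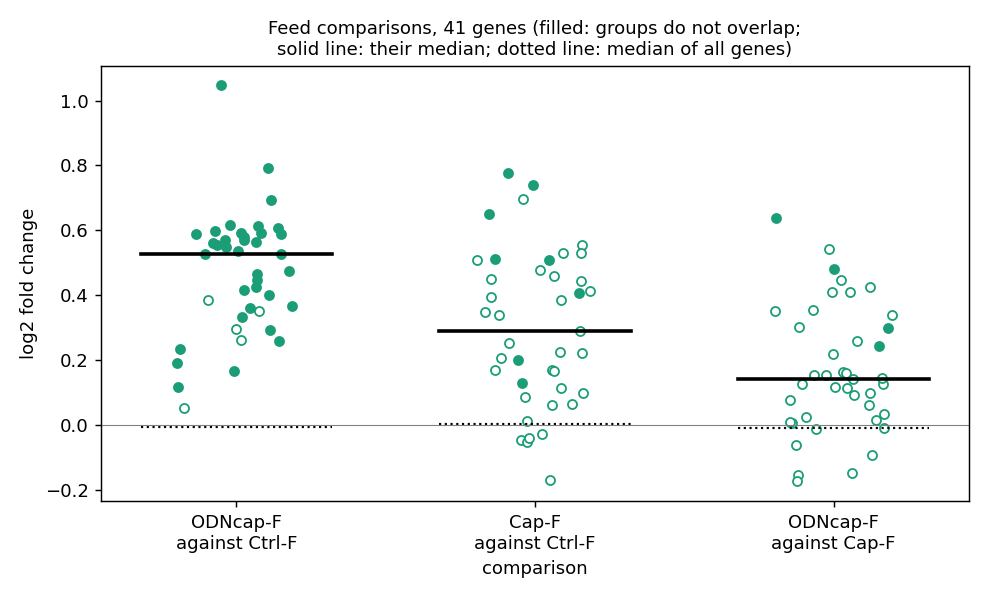
Log2 fold change (vertical axis) of the 41 genes in the 3 comparisons between OVA-challenged groups, with filled points where the 2 groups do not overlap, a solid line at the median of the 41 genes and a dotted line at the median of all genes. All 41 points of ODNcap-F against Ctrl-F lie above 0, 36 of them filled, with a median of 0.53, while 8 and 4 points are filled in the other comparisons.

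The order of the group means was shared by most members. NT was highest for 34 of 41 and Ctrl-F lowest for 35. The order NT, ODNcap-F, Cap-F, Ctrl-F from high to low held for 27 members. The share of all genes with each of these orders was not computed, so the counts cannot be set against a background. The ODNcap-F and Cap-F mice overlapped for 37 of 41 members, beside 15747 of 28992 genes, so their places in this order were not separated for most members. The 2 Cap-F mice lay far apart, and the overlap does not show that the feeds acted alike. For 6 others Cap-F and ODNcap-F changed places, with NT still highest and Ctrl-F lowest.

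A wider list of 127 other motile cilium genes, of which 104 were measured above background, was also lower in Ctrl-F than in NT. There 67 fell (64.4%, beside 35.7% of all genes) and 5 rose, with a median log2 fold change of -0.65. The falls numbered 50 without NT mouse 1, 38 without NT mouse 2, 54 without Ctrl-F mouse 1 and 41 without Ctrl-F mouse 2, or 36.5% to 51.9% of the list, beside 28.2% to 29.9% of all genes. The falls were led by Sec14l3 (-1.66, adjusted p = 0.000184), a lipid transfer protein of ciliated cells, Gmnc (-1.48, adjusted p = 0.0249), which acts upstream of Mcidas, Ccdc170 (-1.35, adjusted p = 0.0290) and the central pair gene Cfap46 (-1.302, adjusted p = 0.00538). The rises were led by Nme7 (1.33, adjusted p = 0.000148), Dnah8 (1.06, adjusted p = 0.000535), a dynein heavy chain known from sperm tails, the dynein assembly factor Dnaaf2 (0.64, adjusted p = 0.00254) and the transport gene Ift20 (0.47, adjusted p = 0.00303). Nme7 stood at 8.05 and 8.08 in NT and between 9.28 and 9.49 in all 6 OVA-challenged mice.

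Of the same 104 genes, 40 fell (38.5%, beside 32.4% of all genes) and 5 rose in Cap-F against NT, with a median of -0.44. The falls numbered 67 without Cap-F mouse 2 and 26 without mouse 1, and 26 and 21 without NT mouse 1 and NT mouse 2. In ODNcap-F against NT 33 fell (31.7%, beside 34.9% of all genes) and 11 rose, with a median of -0.34. The falls numbered 21 without ODNcap-F mouse 1 or NT mouse 2, and 45 when 1 of the Cap-F mice was dropped. With all 8 mice in the fit, the share of falls was close to the background in Cap-F and below it in ODNcap-F. Sec14l3 and Gmnc led the falls in Cap-F (-1.34 and -1.33), and Ccno, which acts in centriole amplification, fell by 1.02. In ODNcap-F the falls were led by Sec14l3 (-1.41), the BBSome subunits Bbs2 (-1.07) and Bbs1 (-0.87), which sort cargo in cilia, and the transport gene Ift43 (-0.86). Dnah8 rose by 1.32 in Cap-F and 1.05 in ODNcap-F, and Nme7 by 1.31 in each. In Cap-F Ift20 and Dnaaf2 rose by 0.40 each, and in ODNcap-F the factor Foxn4 rose by 0.86 and the spoke gene Rsph14 by 0.82. In the transport and BBSome part of the list, 18 of 25 genes fell and 1 rose against NT with standard feed, 14 fell and 2 rose with Cap-F, and 13 fell and 3 rose with ODNcap-F, beside the same shares of all genes as above. Between the OVA-challenged groups, 0 of the 104 passed the adjusted p in limma, while at an unadjusted p 18 were higher and 1 lower (ODNcap-F against Ctrl-F, beside 3.69% of all genes higher), 15 higher and 2 lower (Cap-F against Ctrl-F, beside 8.99%) and 4 higher and 3 lower (ODNcap-F against Cap-F, beside 5.98%).

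The 16 members with several kept probes had 19 further probes, of which 18 were lower in Ctrl-F than in NT and 15 passed as lower. The exception was a probe of Rfx3 at 0.18, beside -0.05 by its brightest probe. In ODNcap-F against NT, 17 of the 19 had the direction of the brightest probe and 6 passed as lower. There a second probe of Dnai2 gave 0.52 (adjusted p = 0.441), beside -0.40, and one of Ift172 gave -1.17 (adjusted p = 0.00117), beside -0.37. In ODNcap-F against Ctrl-F that Ift172 probe gave -0.48 (adjusted p = 0.736), beside 0.17, so its probes disagree in sign there.

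Members whose promoter held the X-box core, shown above for Tekt1, Hydin and others, fell in Ctrl-F in 17 of 19 cases (89.5%), and those without it in 10 of 17 (58.8%). Over all genes the corresponding shares were 38.5% and 36.2%. The exceptions with the core were Ropn1l and Rfx3. These counts rest on the calls, which became fewer when a mouse of NT or Ctrl-F was left out. Of the members without the core that were not called, all but Dnaaf3 had both Ctrl-F mice below both NT mice. The difference between members with and without the core was not tested.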

How the data were processed

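RNA of 8 lungs was hybridized to 1-color arrays on 1 slide. The authors deposited, per spot, the background-subtracted intensity from Agilent Feature Extraction 11.0, and 1 table of quantile-normalized log2 values for 32312 probes, used here as an alternative. Intensities were log2 transformed with 792 flagged values missing, averaged over spots into 56605 probes and quantile normalized. A probe was kept when the scanner marked it well above background in both mice of any group (37116 probes). RefSeq named 58.3% of all probes. The linear model (limma 3.58.1 in R 4.3.3) held the 4 groups, all 8 arrays and no covariate. The authors' local-pooled-error test was rebuilt as an alternative, with 100 bins and a spline of 10 degrees of freedom. On simulated data in which each gene had its own spread, the local-pooled-error test made more false calls than limma. That design goes against the test's assumption that probes of like brightness share a spread, so it cannot rank the tests. Which test makes fewer false calls on these arrays was not tested. Named were all members, and of the wider list at most 4 called genes in either direction, of which 1 is not reported here. Members, lists and markers were chosen with earlier results of these data known. The number of arrays limits the precision. The limma p-values rest on a spread between single mice that is pooled over the 4 groups and drawn toward that of other probes. The gap between the Cap-F mice thus also enters comparisons without Cap-F. The local-pooled-error p-values take their spread from probes of like brightness. No spot was saturated. Alternatives changed scaling, background correction, filter, variance, pairing, probes, test or arrays.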

Additional observations from a re-analysis of the deposited data

How the results depend on the processing

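No called member changed direction against NT under an alternative scaling, background correction, filter or probe choice, on the deposited values or with 1 mouse left out. Calls against NT numbered 28, 12 and 8 for Ctrl-F, Cap-F and ODNcap-F. They numbered 18, 6 and 5 with no filter on background, and 13, 3 and 1 with a fold over 2. A fit of only the groups compared gave 7 for Cap-F and 18 for ODNcap-F, and normexp gave 14 for ODNcap-F. The local-pooled-error test gave 29 and 18 for Cap-F and ODNcap-F, and, on the deposited table, an alternative chosen after seeing the data, 28 and 20. With 1 mouse left out, these calls ranged from 8 to 34, from 4 to 31 and from 4 to 20, where a lone mouse is assumed to vary like the other groups. Between OVA-challenged groups, limma gave 0 calls under each alternative of scaling, filter, fit or left-out mouse. An unadjusted p gave 5 for ODNcap-F against Ctrl-F, 1 for ODNcap-F against Cap-F and 3 for Cap-F against Ctrl-F. The local-pooled-error test gave 1, 0 and 4, or 7, 0 and 6 on the deposited values. For that test on the deposited values, the share of all genes called was not computed. The median change in Ctrl-F was -0.67 with normexp. With 1 mouse left out it ranged from -0.997 to -0.77 in Ctrl-F, from -0.84 to -0.12 in Cap-F and from -0.47 to -0.24 in ODNcap-F, and from 0.013 to 0.73 for Cap-F against Ctrl-F. With the replicate block, the calls against NT were 27, 13 and 9. The deviations of mice of the same number correlated weakly (correlations from -0.0123 to 0.161). With 2 mice a group this cannot show whether the numbers pair them, and the labels do not say. The cause of these shifts was not tested.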
